A study of Rattus norvegicus with 9 samples.

Results

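Livers of SCL-treated rats were compared with livers of rats on a normal diet. The comparison held 6 of the 9 RNA libraries of the series, 3 of each group, chosen by their sample labels and joined on the 15565 gene symbols that both deposited tables held. All rats were male and of the strain labelled SD. In the labels SCL stands for the plant Smilax china L. The tissue of the SCL-treated rats is labelled as fatty liver, that of the normal diet rats as control liver, with wt as its source name. The other 3 libraries came from rats given a high-fat diet for 8 weeks and were used to estimate the spread. The labels give neither the diet of the SCL-treated rats nor the dose or length of the treatment, so an effect of SCL and an effect of diet cannot be told apart here. The text on the design has SCS in place of SCL for a group, and both were taken as 1 group, which no label states. Whether each library came from its own animal is told by the sample numbers alone, so p-values measure only how these samples spread, which may be technical.

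The liver makes cholesterol from acetyl-CoA through the mevalonate pathway and a long tail of sterol conversions. The genes of these enzymes are known targets of SREBP2, the product of Srebf2, which the sterol sensor Scap carries to its activating proteases when sterols in the endoplasmic reticulum are low and which the Insig proteins hold back when they are high. The liver also clears drugs and plant compounds, first by oxidation through cytochromes P450 and then by conjugation to glutathione, glucuronic acid or sulfate. NRF2, the product of Nfe2l2, is a transcription factor known to act on many conjugation and antioxidant genes.

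Libraries held 12413774 to 15521648 reads, and 12041 genes were tested with edgeR on counts scaled by TMM. Levels are given as CPM, reads scaled to a common library size, for replicates 1, 2 and 3 in that order, and fold changes are SCL-treated over normal diet. Transcripts of the mitochondrial genome took 4.63%, 3.85% and 11.2% of reads in the normal diet replicates and 10.97%, 49.0% and 7.04% in the SCL-treated replicates, so SCL-treated replicate 2 stood apart. The means were 6.54% ± 4.01 (SD, n = 3) and 22.3% ± 23.2 (SD, n = 3), and the groups overlapped. Results are therefore also given without that library. The RNA carried the defining genes of hepatocytes in each of the 6 libraries, with albumin (Alb) at 119051, 91236 and 125747 CPM on the normal diet and 101841, 47034 and 152855 CPM with SCL. The lowest of these was SCL-treated replicate 2. In such bulk tissue, fewer cells of a type and less RNA per cell cannot be told apart.

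With edgeR 1 of 12041 genes passed an adjusted p of 0.05 between the groups, which is 0.0083% of genes, and it was lower in SCL-treated livers. At an unadjusted p under 0.05 there were 428 lower genes (3.55%) and 400 higher genes (3.32%). Every SCL-treated library lay below every normal diet library at 7.81% of genes and above every one at 7.47%. DESeq2, which estimates the spread in another way, called 18 genes lower (0.149%) and 22 higher (0.183%), 40 in all. The median log2 fold change over all genes tested was 0.026. Scaling by library totals alone moved that median to -0.21, and fold changes are read against it there.

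**Figure D1:**
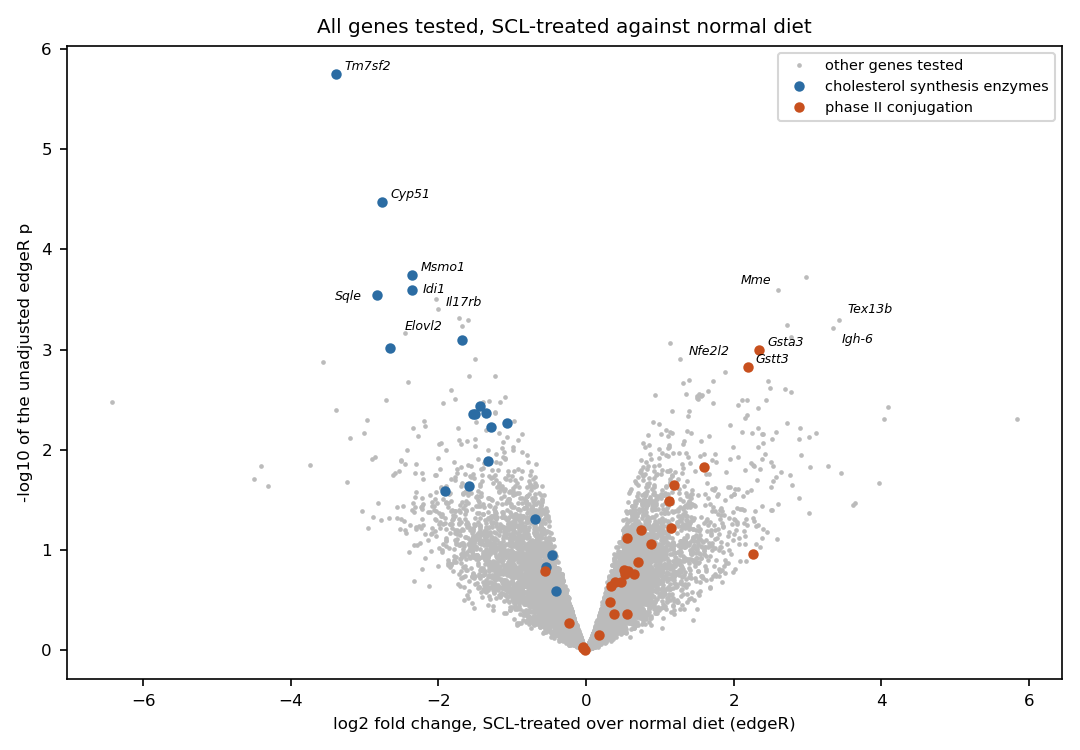
Log2 fold change of SCL-treated over normal diet livers (x axis) against -log10 of the unadjusted edgeR p (y axis) for the 12041 genes tested, 1 point per gene. The 20 cholesterol synthesis enzymes (blue) all lie left of 0 with Tm7sf2 at the top, and 22 of 27 conjugation genes (orange) lie right of 0.

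The single gene past the edgeR threshold was Tm7sf2, which encodes a sterol reductase of the late cholesterol pathway. It had 101, 147 and 84.4 CPM in the normal diet replicates and 12.9, 8.64 and 10.1 CPM in the SCL-treated replicates. The highest SCL-treated library lay far below the lowest normal diet library. Its log2 fold change was -3.39 (SE 0.36) with 3 libraries a group (edgeR adjusted p = 0.022), so it fell from a mean of 111 ± 32.7 CPM to 10.6 ± 2.18 CPM (SD). DESeq2 gave an adjusted p of 1.8e-15 and limma-voom one of 1.7e-04. The edgeR call ended when some single libraries were left out, with an adjusted p of 0.088 and 0.10 without normal diet replicate 1 or 2, 0.075 without high-fat diet replicate 2, and 0.20, 0.14 and 0.20 without SCL-treated replicate 1, 2 or 3. Scaling by library totals alone ended it too (adjusted p = 0.15), as did leaving out the 2 libraries over 40% mitochondrial, 1 of them high-fat diet (adjusted p = 0.18). The log2 fold change lay between -3.62 and -2.99 over all alternatives.

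The whole set of cholesterol synthesis enzymes stood lower in SCL-treated livers. All 20 enzymes had a negative log2 fold change, from -3.39 to -0.41, with a median of -1.51 against 0.026 over all genes tested. Of the 20, 17 had an unadjusted edgeR p under 0.05, 16 had every SCL-treated library below every normal diet library, and DESeq2 called 7. The shares of all genes that met these criteria were 3.55%, 7.81% and 0.149%. Summed over the list, levels were 3333, 2661 and 2033 CPM in the normal diet replicates and 979, 901 and 1071 CPM in the SCL-treated replicates. All 20 remained negative in each alternative and with each library left out, with medians from -1.81 to -1.13, the last with the log2 mitochondrial share as a covariate. Without SCL-treated replicate 2 the median was -1.38. The spread within each group had an order. Normal diet replicate 3, which had the highest mitochondrial share of that group, was the lowest of the 3 at 16 of the 20 enzymes. SCL-treated replicate 2, which had the highest such share of its group, was the lowest there at 12 of the 20.

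**Figure D2:**
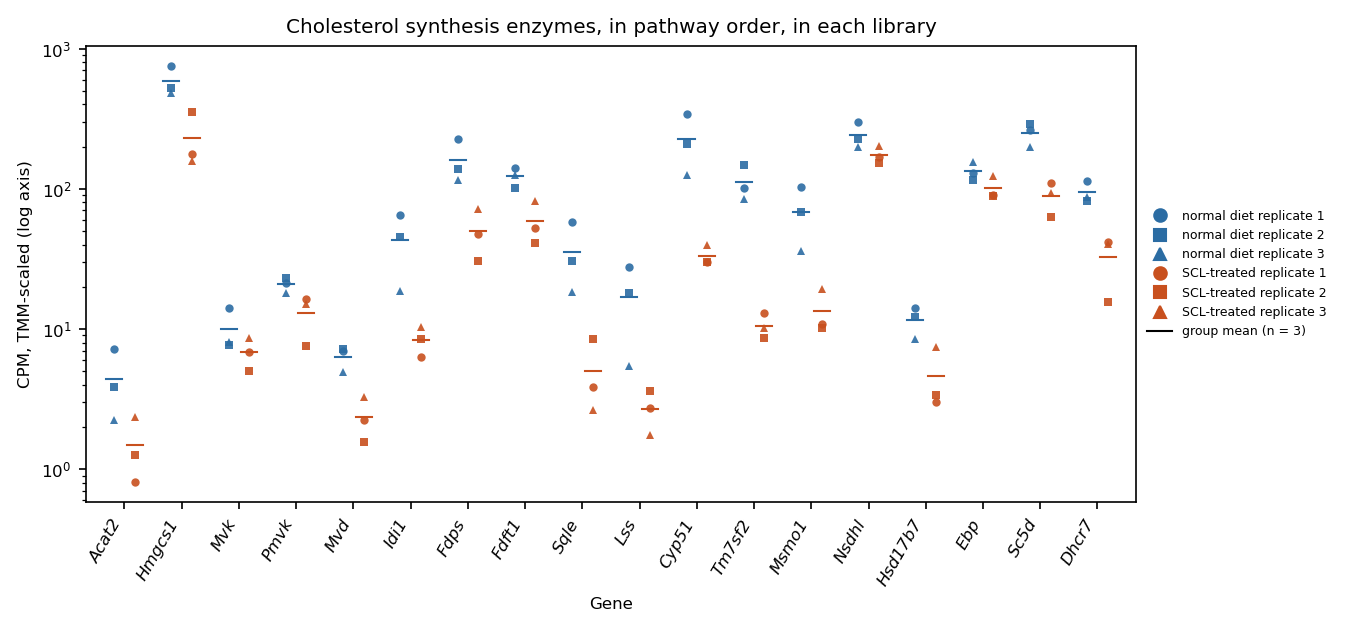
TMM-scaled CPM on a log axis of 18 of the 20 cholesterol synthesis enzymes in pathway order (x axis), with 1 symbol per library (normal diet blue, SCL-treated orange, symbol shape by replicate) and bars at the group means. The SCL-treated mean lies below the lowest normal diet library at each of these 18 genes, and the gap is widest at Tm7sf2.

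Promoter sequences are shown for Tm7sf2, Msmo1 and Idi1, because these enzyme genes stood lower together and CCAAT boxes, where the factor NF-Y binds, are a known feature of sterol-regulated promoters. They had the lowest unadjusted p among the enzymes whose entry in the RefSeq promoter table (build GRCr8) held that box, and the entry of Cyp51 held none. Each run is the 250 bases before the annotated start site, 5′ to 3′ on the gene's strand, with CCAAT or its reverse complement in capitals. The Tm7sf2 window lies at chr1:212789542-212789791 on the minus strand, that of Msmo1 at chr16:29746863-29747112 on the plus strand and that of Idi1 at chr17:66547525-66547774 on the minus strand.
Tm7sf2: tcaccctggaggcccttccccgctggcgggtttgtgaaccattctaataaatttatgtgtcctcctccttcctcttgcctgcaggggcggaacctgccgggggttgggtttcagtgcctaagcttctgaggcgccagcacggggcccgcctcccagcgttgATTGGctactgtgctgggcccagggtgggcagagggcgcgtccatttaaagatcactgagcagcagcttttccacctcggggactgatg
Msmo1: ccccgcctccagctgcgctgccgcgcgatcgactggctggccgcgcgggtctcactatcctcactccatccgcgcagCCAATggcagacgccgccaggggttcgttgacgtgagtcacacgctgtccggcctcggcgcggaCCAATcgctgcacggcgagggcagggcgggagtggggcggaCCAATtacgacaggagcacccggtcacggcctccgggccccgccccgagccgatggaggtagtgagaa
Idi1: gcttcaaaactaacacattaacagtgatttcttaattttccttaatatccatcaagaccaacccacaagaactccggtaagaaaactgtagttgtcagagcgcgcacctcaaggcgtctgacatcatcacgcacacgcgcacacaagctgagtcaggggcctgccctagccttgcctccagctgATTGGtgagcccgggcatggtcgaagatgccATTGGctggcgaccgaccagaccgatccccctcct
The Tm7sf2 match begins 89 bases before the start site, those of Msmo1 173, 109 and 68 bases before it, and those of Idi1 66 and 35 bases before it. Tm7sf2 has a further match past the start site. Windows of 300 bases ran from 250 before to 50 after the start. In these, 12 of the 15 enzymes with an entry held CCAAT on either strand (80.0%), against 37.5% of all 33469 windows. A gene was counted where any of its windows held the letters, while the share of all windows counts single windows. The 2 shares are therefore unlike measures. Counted per gene, CCAAT was also in 6 of 11 sterol sensing genes and in 11 of 22 conjugation genes. A core of the sterol regulatory element, TCACNCCAC on either strand, was in the windows of 0 of the 15 enzymes and in 1.12% of all windows. Its shorter form CACNCCAC, which lies inside the longer one, was in those of Acat2 and Ebp (13.3%) and in 5.80% of all. These matches describe letters in a window and do not show binding.

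The enzymes of the mevalonate arm, which builds the isoprenoid farnesyl diphosphate, had a median of -1.39 over 8 genes. Of these, 7 were lower at an unadjusted p under 0.05 (3.55% of all genes). Hmgcs1, the HMG-CoA synthase, had 748, 526 and 480.5 CPM on the normal diet and 178, 351 and 157 CPM with SCL, with no overlap and a log2 fold change of -1.35 (SE 0.38). Idi1, the isopentenyl diphosphate isomerase, had 64.9, 45.5 and 18.7 CPM and 6.26, 8.54 and 10.4 CPM. The 3 SCL-treated libraries lay below each normal one, at -2.36 (SE 0.44), and DESeq2 called it (adjusted p = 5.7e-04). Fdps, the farnesyl diphosphate synthase, had 225, 139 and 115 CPM and 47.6, 30.8 and 71.4 CPM, also without overlap, at -1.68 (SE 0.36) (DESeq2 adjusted p = 0.0086). Mvd, the mevalonate diphosphate decarboxylase, stood at -1.43 (SE 0.39) and Pmvk, a kinase upstream of it, at -0.69 (SE 0.31), both without overlap. Acat2, which joins acetyl-CoA units, stood at -1.58 (SE 0.60) and Mvk, the mevalonate kinase, at -0.54 (SE 0.35), and the groups overlapped at both.

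From the making of squalene to cholesterol the median was -1.72 over 12 genes. Of these, 10 were lower at an unadjusted p under 0.05 (3.55% of all genes) and DESeq2 called 5 lower (0.149% of all genes). Fdft1, the squalene synthase that opens this arm, stood at -1.07 (SE 0.31) without overlap of the groups. Sqle, the squalene epoxidase and a second point of control of the pathway, had 58.00, 30.3 and 18.4 CPM on the normal diet and 3.88, 8.44 and 2.63 CPM with SCL. Every SCL-treated library lay below every normal one, with a log2 fold change of -2.84 (SE 0.54) (DESeq2 adjusted p = 3.5e-04). Cyp51, the lanosterol demethylase, had 340.3, 209 and 126 CPM and 29.9, 30.1 and 39.7 CPM. Its SCL-treated libraries lay close together and far below the normal ones, at -2.76 (SE 0.41), with an edgeR adjusted p of 0.21 and a DESeq2 adjusted p of 2.0e-07. Msmo1, the sterol C4-methyl oxidase that acts after Cyp51 and Tm7sf2, had 102, 68.1 and 36.00 CPM and 10.8, 10.2 and 19.2 CPM, with no overlap and -2.36 (SE 0.42) (DESeq2 adjusted p = 3.5e-04). Lss, which closes squalene epoxide into lanosterol, had 27.5, 18.1 and 5.42 CPM and 2.72, 3.59 and 1.75 CPM, and normal diet replicate 3 lay nearer to the SCL-treated libraries than to the other normal ones. It stood at -2.66 (SE 0.59) (DESeq2 adjusted p = 0.0065).

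The other sterol conversions differed in size. Dhcr7, the 7-dehydrocholesterol reductase, stood at -1.53 (SE 0.43), Sc5d, the lathosterol oxidase, at -1.50 (SE 0.42) and Hsd17b7, a ketosteroid reductase, at -1.33 (SE 0.45), each without overlap of the groups. Nsdhl, a decarboxylating sterol dehydrogenase, stood at -0.47 (SE 0.27) and Ebp, the sterol isomerase, at -0.41 (SE 0.34). These 2 had the smallest differences among the enzymes after squalene and their groups overlapped. On the length-scaled FPKM values of the authors, the level of Hmgcs1 on the normal diet was 197 ± 53.2 and that of Ebp 136 ± 11.4 FPKM (mean ± SD, n = 3). With SCL the order of the means was the opposite, with Ebp at 87.4 ± 16.6 and Hmgcs1 at 63.6 ± 24.3 FPKM. The single SCL-treated libraries were uneven, with Hmgcs1 at 178, 351 and 157 CPM and Ebp at 90.8, 89.2 and 122 CPM. The order of the means therefore need not hold in SCL-treated replicate 2.

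Genes of sterol sensing and uptake stood lower in part. The median over 16 genes was -0.55, 11 of them lower, and 6 had an unadjusted p under 0.05, all lower (3.55% of all genes). Srebf2 itself had 73.8, 56.3 and 42.3 CPM on the normal diet and 25.9, 25.7 and 35.3 CPM with SCL, without overlap, at -0.99 (SE 0.31). Insig1, which holds SREBP2 back and is also its target, had 327, 393 and 187 CPM and 57.97, 130.4 and 133 CPM, again without overlap, at -1.50 (SE 0.47). Stard4, a sterol carrier protein, had 32.7, 34.9 and 19.5 CPM and 13.3, 6.50 and 9.21 CPM. It was the member that DESeq2 called (adjusted p = 0.049), at -1.58 (SE 0.39). Insig2 stood at -1.06 (SE 0.38), Npc1, which exports cholesterol from lysosomes, at -1.09 (SE 0.49), Soat1, a cholesterol esterifying enzyme, at -1.44 (SE 0.57), and Scap at -0.50 (SE 0.32), each with every SCL-treated library below the normal ones. Soat2, the esterifying enzyme of hepatocytes, stood at 0.45 (SE 0.25).

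Other members of the list differed less. Mylip (0.43 (SE 0.42)), which encodes a ubiquitin ligase known to be induced by oxysterol receptors, Npc2 (-0.50 (SE 0.46)), a cholesterol carrier of lysosomes, Nr1h2 (0.12 (SE 0.23)), which encodes an oxysterol receptor, and the protease genes Mbtps1 (-0.25 (SE 0.24)) and Mbtps2 (0.31 (SE 0.36)) had overlapping groups. Without SCL-treated replicate 2 the median of these 16 genes was -0.39 with 14 lower, without normal diet replicate 1 it was -0.35 and without SCL-treated replicate 3 it was -0.89. With the mitochondrial share as covariate it was -0.18.

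Outside cholesterol synthesis, the lower genes of smallest unadjusted p included Il17rb, Tmem30b, Elovl2, Fzd4 and Ednra, and DESeq2 called each of them. Il17rb, a receptor subunit for interleukin 25, had 18.2, 27.8 and 13.2 CPM on the normal diet and 4.76, 6.31 and 3.33 CPM with SCL, at -2.04 (SE 0.39) (DESeq2 adjusted p = 0.0014). Tmem30b, a subunit of phospholipid flippases, had 10.4, 14.7 and 8.75 CPM and 2.86, 2.91 and 2.63 CPM, at -2.01 (SE 0.40). Elovl2, which elongates polyunsaturated fatty acids, had 46.4, 74.7 and 80.0 CPM and 25.7, 16.8 and 18.2 CPM, at -1.73 (SE 0.35). The groups overlapped at none of the 5, which the rule that named them required. Fzd4, a Wnt receptor, stood at -1.60 (SE 0.32) and Ednra, the endothelin A receptor, at -1.69 (SE 0.35). Their edgeR adjusted p was 0.49 for Fzd4 and 0.49 for Ednra, so none of the 5 passed that test.

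The higher genes of smallest unadjusted p did not all share a list, though Gsta3 and Gstt3 both belong to conjugation. No gene was called higher by edgeR, and the 10 named by rule had adjusted p from 0.48 to 0.66. That rule required groups that do not overlap. Mme, which encodes the peptidase neprilysin, had 1.04, 0.691 and 2.24 CPM on the normal diet and 11.4, 6.60 and 6.05 CPM with SCL, with no overlap and a log2 fold change of 2.61 (SE 0.49) (DESeq2 adjusted p = 3.5e-04). Tex13b, a gene known from testis, had 2.07, 2.13 and 0.795 CPM and 9.93, 30.95 and 13.8 CPM, at 3.43 (SE 0.70) (DESeq2 adjusted p = 3.5e-04). Pyroxd2, an oxidoreductase of mitochondria, had 20.4, 30.8 and 23.3 CPM and 56.2, 46.7 and 61.4 CPM, again without overlap, at 1.14 (SE 0.25). Reg4, a secreted lectin, stood at 2.47 (SE 0.61) from levels of about 1 CPM on the normal diet, and Prps2, which makes phosphoribosyl pyrophosphate for nucleotides, at 1.40 (SE 0.35) (DESeq2 adjusted p = 0.058). DESeq2 called the 10 except Prps2. Igh-6 and Itgae are described with the immune genes, and Gsta3, Gstt3 and Nfe2l2 with conjugation.

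Genes of conjugation were mostly higher in SCL-treated livers. Of 27 tested, 22 had a positive log2 fold change, with a median of 0.55 against 0.026 over all genes. Of the 27, 5 were higher at an unadjusted p under 0.05 (3.32% of all genes) and 10 had every SCL-treated library above every normal one (7.47% of all genes), while 1 had every SCL-treated library below. DESeq2 called Gsta3 and Gstt3 higher (0.183% of all genes). Summed levels were 9036, 7525 and 10392 CPM in the normal diet replicates and 12550.0, 10997 and 17913 CPM in the SCL-treated replicates. SCL-treated replicate 3 was the highest. Among glutathione transferases 14 of 16 were higher, among glucuronosyltransferases 4 of 4 and among sulfotransferases 3 of 4. Without SCL-treated replicate 2 the median was 0.72 with 25 of 27 higher, without SCL-treated replicate 3 it was 0.27, and with library totals it was 0.33 with 21 higher. Many of these genes are close copies whose reads the counting could split, so single members are uncertain.

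Gsta3, an alpha class glutathione transferase, had 4.87, 6.39 and 4.63 CPM on the normal diet and 26.9, 7.96 and 45.8 CPM with SCL. SCL-treated replicate 2 was just above the highest normal library and the other 2 were far above it. The log2 fold change was 2.34 (SE 0.52) (edgeR adjusted p = 0.58, DESeq2 adjusted p = 0.0079). In a fit of the normal diet and SCL-treated libraries without SCL-treated replicate 2, chosen after seeing the data, edgeR called 3 genes, Tm7sf2 lower and Gsta3 (log2 fold change 2.78, SE 0.30, adjusted p = 0.049) and P2rx5 higher. P2rx5, a channel opened by ATP, had 0.122, 0.0576 and 0 CPM on the normal diet and 6.06, 0 and 6.05 CPM with SCL, so it had 0 reads in the library left out. The promoter of Gsta3 is shown because it held a core of the antioxidant response element, where NRF2 binds, TGACNNNGC on either strand. The 250 bases before the start site of RefSeq build GRCr8 lie at chr9:31154739-31154988 on the plus strand, with the match, which begins 17 bases before the start, in capitals.
Gsta3: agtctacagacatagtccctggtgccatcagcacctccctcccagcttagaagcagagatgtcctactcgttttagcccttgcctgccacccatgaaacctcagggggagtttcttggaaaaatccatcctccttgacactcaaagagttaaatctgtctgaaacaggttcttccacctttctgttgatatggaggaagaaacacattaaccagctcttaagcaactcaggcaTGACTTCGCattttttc
Of the 22 conjugation genes with an entry, 7 held that core in 300 bases around a start site (31.8%), against 12.1% of all windows. Some genes have more than 1 start site in the table, and a gene was counted where any of its windows held the core. The share of all windows counts single windows, so the 2 shares are unlike measures. Counted per gene, the core was also in 4 of 15 cholesterol synthesis enzymes (26.7%) and 3 of 11 sterol sensing genes (27.3%). The core was therefore not particular to the list that stood higher.

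Gstt3, a theta class transferase, had 31.8, 47.5 and 123 CPM on the normal diet and 263, 220.1 and 440.4 CPM with SCL. Normal diet replicate 3 was well above the other 2 and still below every SCL-treated library, and the log2 fold change was 2.19 (SE 0.52) (DESeq2 adjusted p = 0.0087). Ugt2b37, a glucuronosyltransferase, had 2156, 1129.5 and 1976 CPM and 2506, 4381 and 5169.6 CPM, at 1.20 (SE 0.45). Gsta1 stood at 1.12 (SE 0.46), Gstm3 at 1.60 (SE 0.55) and Sult1c2, a sulfotransferase, at 1.15 (SE 0.55). These 3 had no overlap of the groups and were chosen after their values were seen. Nfe2l2 had 73.4, 55.5 and 75.5 CPM and 145, 157 and 193 CPM. Its libraries lay close within each group, and the rule that named it required groups that do not overlap. It stood at 1.28 (SE 0.29) (edgeR adjusted p = 0.65, DESeq2 adjusted p = 0.013), and at 1.31 without SCL-treated replicate 2.

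The classical NRF2 targets did not all stand on the side of Nfe2l2. The antioxidant and NRF2 list, which includes Nfe2l2 itself, had a median of 0.20, with 16 of 23 genes higher. At an unadjusted p under 0.05, 2 were higher (3.32% of all genes), namely Nfe2l2 and Txn1, and 0 lower. With library totals as the only scaling the median was -0.024 with 11 higher, against -0.21 over all genes. It was 0.39 without SCL-treated replicate 2 and 0.055 without SCL-treated replicate 3. Txn1, which encodes thioredoxin, had 97.1, 130.1 and 170.0 CPM on the normal diet and 244, 353 and 244 CPM with SCL, without overlap, at 1.08 (SE 0.41). Ephx1, the microsomal epoxide hydrolase, stood at 1.17 (SE 0.60), Gclc, a subunit of the enzyme that begins glutathione synthesis, at 0.57 (SE 0.40), and its other subunit Gclm at 0.08 (SE 0.45). Nqo1, a quinone reductase, stood at -0.16 (SE 1.07), Hmox1, the inducible heme oxygenase, at -0.08 (SE 0.31), Srxn1, the sulfiredoxin, at -0.29 (SE 0.72), and Txnrd1, the thioredoxin reductase, at -0.37 (SE 0.26). The abundant catalase gene Cat stood at 0.04 (SE 0.34) and Selenop, a selenium carrier of plasma, at -0.91 (SE 0.96).

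**Figure D3:**
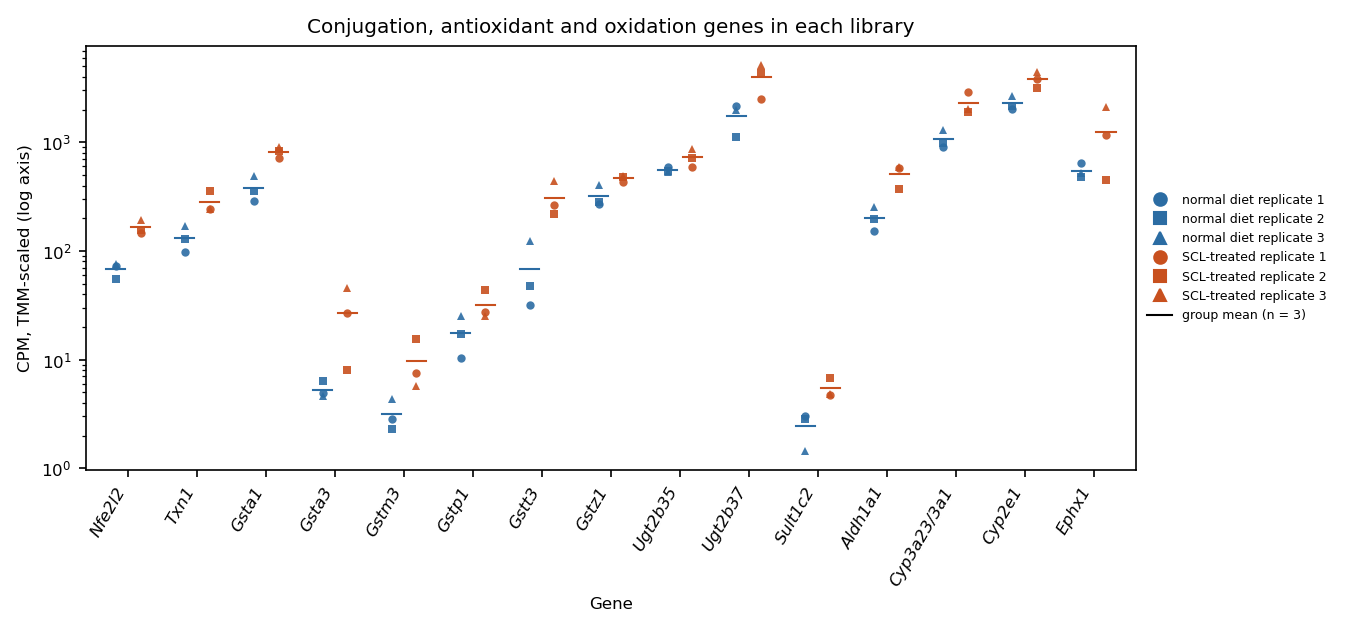
TMM-scaled CPM on a log axis of 15 genes of conjugation, antioxidant defence and oxidation (x axis), chosen after their values were seen, with 1 symbol per library (normal diet blue, SCL-treated orange, shape by replicate) and bars at the group means. SCL-treated replicate 2 (square) lies just above the normal diet range at Gsta3, just below it at Ephx1, and well above it at Nfe2l2 and Gstt3.

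Cytochromes P450 and bile acid genes showed single higher genes in lists with no common direction. The 28 genes of P450 families 1 to 3 had a median of 0.016, with 14 higher and 14 lower, and its sign turned with single libraries left out, between -0.17 without SCL-treated replicate 1 and 0.25 without normal diet replicate 3. Cyp3a23/3a1, an oxidase of drugs and plant compounds, had 899, 991 and 1298 CPM on the normal diet and 2914, 1912 and 2047 CPM with SCL, without overlap, at 1.11 (SE 0.35) (DESeq2 adjusted p = 0.049). Cyp2e1, an oxidase of ethanol, stood at 0.74 (SE 0.35), also without overlap. Bile acid genes had a median of 0.044, 9 higher and 9 lower, which ran from -0.14 without SCL-treated replicate 3 to 0.20 without SCL-treated replicate 2. Cyp7a1, the rate-limiting enzyme of bile acid synthesis from cholesterol, had 40.8, 24.4 and 24.5 CPM and 41.5, 269 and 142 CPM. SCL-treated replicate 1 was barely above the highest normal library while the other 2 were far above it, and the log2 fold change was 2.33 (SE 0.63) (DESeq2 adjusted p = 0.049), and 1.61 without SCL-treated replicate 2. Cyp7b1, an oxysterol hydroxylase, stood at 1.37 (SE 0.50), and Baat and Akr1d1, the most abundant of the list, at 0.63 (SE 0.40) and 0.67 (SE 0.38).

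DESeq2 also called Aldh1a1, Car3, Angptl8 and Tsc22d1 higher, which were chosen for mention after their values were seen. Aldh1a1, a retinaldehyde dehydrogenase, had 153, 198 and 256 CPM on the normal diet and 582, 368 and 597 CPM with SCL, at 1.35 (SE 0.35). Car3, a carbonic anhydrase abundant in rat liver, had 581, 484 and 624 CPM and 1302, 1551 and 2043 CPM, at 1.54 (SE 0.40). Angptl8, an inhibitor of lipoprotein lipase that feeding is known to induce, had 30.5, 11.1 and 27.4 CPM and 75.9, 37.5 and 259 CPM, at 2.43 (SE 0.64). Tsc22d1, a leucine zipper protein, had 66.0, 30.7 and 47.9 CPM and 116, 210.1 and 329 CPM, at 2.18 (SE 0.58). The groups did not overlap at these 4 genes, and SCL-treated replicate 3 held the highest value at each.

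Genes of fatty acid synthesis and use were mostly lower, with exceptions such as Srebf1 and Scd. The synthesis and desaturation list had a median of -0.82, 13 of 17 genes lower and 4 lower at an unadjusted p under 0.05 (3.55% of all genes). Its summed level overlapped, at 1764, 1437 and 837 CPM on the normal diet and 957, 612 and 1637 CPM with SCL. Without SCL-treated replicate 2 the median was -0.52, without normal diet replicate 1 it was -0.44 and with the mitochondrial share as covariate -0.18. Acss2, which makes acetyl-CoA from acetate and is a known SREBP target, had 40.4, 41.6 and 17.9 CPM on the normal diet and 13.9, 8.73 and 15.2 CPM with SCL, at -1.40 (SE 0.37). Srebf1, the lipogenic relative of Srebf2, had 97.1, 32.7 and 34.3 CPM and 101, 105 and 328 CPM, at 1.70 (SE 0.84), and Scd, the stearoyl-CoA desaturase, had 73.2, 119.9 and 85.9 CPM and 196, 67.9 and 374 CPM, at 1.19 (SE 0.91). Both were highest in SCL-treated replicate 3, and the groups overlapped at Scd. The list of fatty acid oxidation and PPAR alpha targets stood at a median of -0.38, with 20 of 24 lower and 4 of these at an unadjusted p under 0.05 (3.55% of all genes), and -0.22 with 16 lower without SCL-treated replicate 2. Pdk4, a kinase that holds back glucose oxidation, had 207, 176 and 82.6 CPM and 59.9, 21.6 and 40.01 CPM, at -1.94 (SE 0.52), and Cyp4a8, a fatty acid hydroxylase, stood at -1.83 (SE 0.47).

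Genes of lipid storage and glucose stood apart in single members. Chka, the choline kinase that begins phosphatidylcholine synthesis, had 69.4, 87.7 and 97.6 CPM on the normal diet and 162, 375 and 121 CPM with SCL, at 1.37 (SE 0.61), and 0.74 without SCL-treated replicate 2, which held its highest value. Gpat3, a glycerol phosphate acyltransferase, had 7.07, 8.64 and 4.48 CPM and 1.02, 0.970 and 0.175 CPM, at -3.20 (SE 0.97). Plin2, the coat protein of lipid droplets, had 246, 295 and 97.2 CPM and 93.3, 81.7 and 107 CPM, and the groups overlapped only through normal diet replicate 3. It stood at -1.18 (SE 0.46). Pck1, of gluconeogenesis, stood at -0.96 (SE 0.42) and Insr, the insulin receptor, at -0.99 (SE 0.38), both without overlap, in a list of median -0.36 with 14 of 19 lower. Without SCL-treated replicate 2 that median was -0.70, with 14 lower.

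Genes of lymphoid cells and of antigen presentation were higher in SCL-treated livers in part. Igh-6, an immunoglobulin heavy chain locus, had 10.2, 4.15 and 6.51 CPM on the normal diet and 75.7, 90.5 and 45.8 CPM with SCL. Every SCL-treated library was far above every normal one, at 3.35 (SE 0.70) (edgeR adjusted p = 0.49, DESeq2 adjusted p = 3.5e-04), though immunoglobulin genes share reads with close copies. The rule that named Igh-6 and Itgae required groups that do not overlap. Itgae, the alpha E integrin of tissue lymphocytes, had 2.80, 3.57 and 6.51 CPM and 17.7, 13.9 and 16.1 CPM, at 1.89 (SE 0.45), and DESeq2 called it (adjusted p = 0.028). All 5 B and plasma cell markers tested, of 7 listed, had positive values, with a median of 0.98 (0.50 without normal diet replicate 2), and their summed level was 4.90 to 15.2 CPM on the normal diet and 15.3 to 38.6 CPM with SCL. Of 9 T and NK cell markers tested, of 11 listed, 7 were positive, with a median of 0.80. Cd3g, of the T cell receptor complex, had 0.487, 0.115 and 0.651 CPM and 2.25, 4.37 and 0.702 CPM, while Cd4 had 24.5, 22.8 and 13.4 CPM and 13.4, 5.05 and 10.8 CPM and stood at -1.05 (SE 0.42). The summed level of the T and NK list overlapped between the groups, at 35.2 to 35.7 CPM on the normal diet and 34.2 to 43.2 CPM with SCL.

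The antigen presentation list had a median of 0.56 with 12 of 18 genes higher, 2 at an unadjusted p under 0.05 (3.32% of all genes) and 5 with every SCL-treated library above (7.47% of all genes). The median was 0.31 without SCL-treated replicate 3 and 0.23 with the mitochondrial share as covariate. RT1-Db1, a class II chain of the rat, had 22.3, 42.2 and 46.8 CPM on the normal diet and 94.8, 139 and 67.5 CPM with SCL, at 1.44 (SE 0.55), and RT1-Bb stood at 1.10 (SE 0.46). The abundant B2m, of class I, stood at 0.14 (SE 0.37) with overlapping groups. Kupffer cell and macrophage markers stood on the other side, with all 11 negative and a median of -0.37. Cd163, a scavenger receptor, had 31.8, 32.7 and 21.6 CPM and 17.5, 16.01 and 16.5 CPM, at -0.78 (SE 0.26). Clec4f, a marker of rodent Kupffer cells, had 225, 238 and 153 CPM and 174, 66.9 and 273 CPM, and its lowest value was that of SCL-treated replicate 2. Without that library 8 of the 11 were negative and the median was -0.15, while without SCL-treated replicate 3 it was -0.78.

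**Figure D4:**
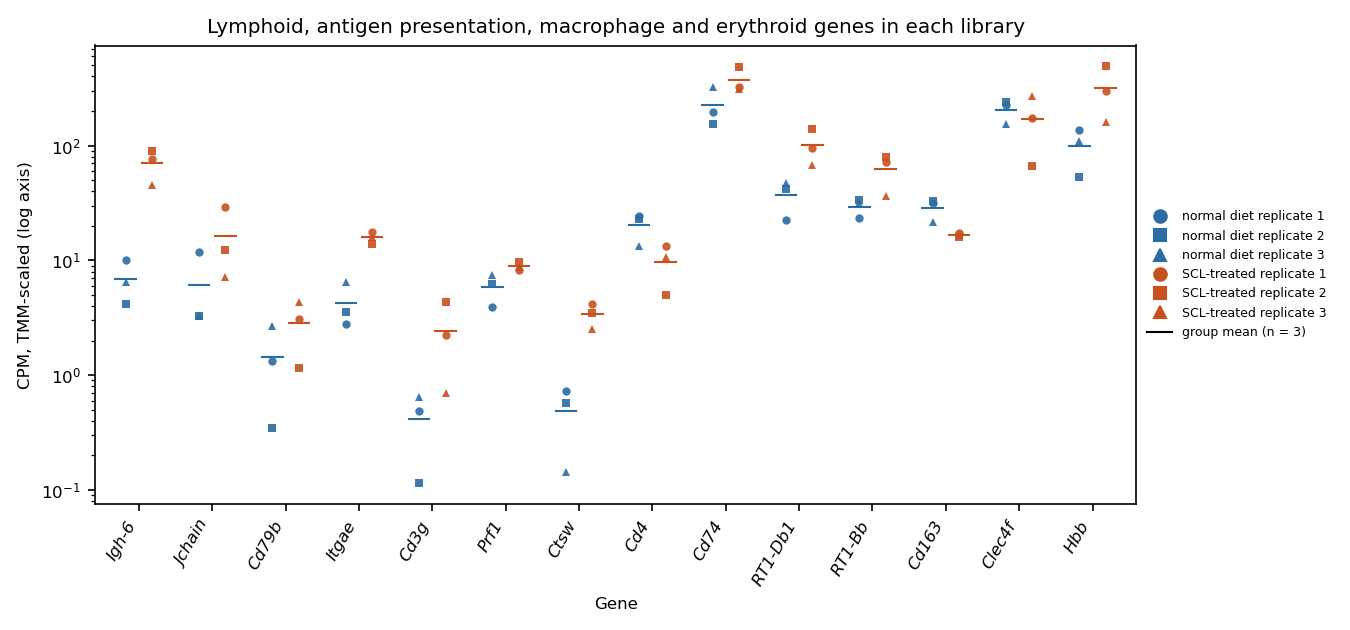
TMM-scaled CPM on a log axis of 14 lymphoid, antigen presentation, macrophage and erythroid genes (x axis), chosen after their values were seen, with 1 symbol per library (normal diet blue, SCL-treated orange, shape by replicate) and bars at the group means. Igh-6, Itgae and Ctsw lie higher in each SCL-treated library, Cd163 lies lower in each, and Clec4f overlaps with its lowest value in SCL-treated replicate 2.

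Blood and inflammatory genes gave mixed values. The 4 erythroid markers tested were positive, with a median of 1.40 and summed levels of 134 to 420 CPM on the normal diet and 361 to 1226 CPM with SCL, which overlapped. The beta globin gene Hbb had 136, 52.8 and 111 CPM and 299.5, 489.9 and 159.6 CPM, at 1.67 (SE 0.50), and no library was free of it. The part that blood in the tissue had in the lymphoid values was not tested. Lcn2, a neutrophil and acute-phase protein, had 2.68, 2.36 and 4.48 CPM and 2.99, 9.12 and 137 CPM, so that its log2 fold change of 3.97 (SE 1.48) came with 1 SCL-treated library far above all others. Il1r1, the interleukin 1 receptor, had 97.0, 86.8 and 17.4 CPM and 16.5, 16.1 and 11.8 CPM, at -2.18 (SE 0.63), with normal diet replicate 3 near the SCL-treated libraries. Tnfaip3, an inhibitor of NF-kB, stood at -1.89 (SE 0.61) without overlap. The inflammatory list as a whole had a median of -0.11 with 11 of 20 lower, -0.35 with 13 lower without SCL-treated replicate 2, and 0.042 without normal diet replicate 1.

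Genes of extracellular matrix and of the plasma proteins were lower to an extent that depended on single libraries. The matrix and stellate cell list had a median of -0.36 with 15 of 26 lower, -0.67 with 22 lower without SCL-treated replicate 2, and -0.14 without normal diet replicate 3. Col5a1, a fibrillar collagen chain, had 13.3, 12.4 and 13.5 CPM on the normal diet and 6.67, 6.99 and 5.002 CPM with SCL, at -1.07 (SE 0.33), and Col3a1 stood at -0.86 (SE 0.38), both without overlap. Pdgfrb, a receptor of stellate cells, stood at -0.76 (SE 0.27). Complement and coagulation genes had a median of -0.28 with 27 of 33 lower, acute-phase proteins one of -0.28 with 14 of 16 lower, and hepatocyte markers one of -0.15 with 8 of 12 lower. Without SCL-treated replicate 2 the medians were 0.016, 0.014 and 0.16, so the direction of these 3 lists rested on that library. Its summed level of hepatocyte markers was 89109.5 CPM, while the other 5 libraries held 175203 to 275068 CPM.

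Genes of translation and respiration were mostly higher. Of 54 cytosolic ribosomal protein genes 49 were positive, with a median of 0.55. At an unadjusted p under 0.05 there were 2 of them, a share near the 3.32% of all genes. Their summed level was 5644, 6586 and 10069.7 CPM on the normal diet and 9799.8, 9874 and 11468 CPM with SCL, so normal diet replicate 3 lay within the SCL-treated range. Without that replicate the median was 0.87, without normal diet replicate 1 it was 0.38, and with the mitochondrial share as covariate it was 0.22 with 42 higher. Respiratory chain genes of the nucleus stood at a median of 0.33, with 28 of 34 positive, 0 of them at an unadjusted p under 0.05, and 33 of 34 without SCL-treated replicate 2. That median was 0.55 without SCL-treated replicate 2 and 0.15 without SCL-treated replicate 3. The 12 mitochondrial genome transcripts tested stood at a median of 2.16 with all libraries, and 0.68 without SCL-treated replicate 2. Mt-co1 had 18071, 13699.5 and 42079.9 CPM on the normal diet and 37409.8, 191376 and 28926 CPM with SCL.

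The remaining lists had medians near that of all genes or few members past an unadjusted p of 0.05. Cell cycle genes stood at a median of 0.41, with 16 of 22 higher, and Cdkn1a, a cell cycle inhibitor, had 35.03, 62.8 and 43.2 CPM on the normal diet and 116, 89.7 and 81.3 CPM with SCL, without overlap, at 1.03 (SE 0.33). Growth hormone axis genes had a median of -0.33 with 12 of 16 lower, and Prlr, the prolactin receptor, had 10.97, 45.2 and 14.8 CPM and 0, 0 and 5.35 CPM. Amino acid catabolism had a median of 0.11, where Oat, the ornithine aminotransferase, had 211, 220.1 and 219.8 CPM and 394, 369 and 327 CPM, at 0.74 (SE 0.26). The circadian list had a median of -0.11, with Per2, a clock repressor, at 2.12 (SE 0.56). Lipoproteins and lipases stood at -0.031, LXR targets and cholesterol efflux at -0.14, iron homeostasis at -0.085, immediate early genes at -0.060 and sinusoidal endothelium markers at -0.13. The heat shock list stood at 0.14, the interferon list at 0.059 and the apoptosis list at 0.081. Several of these medians changed sign with 1 library left out. Without SCL-treated replicate 3 the interferon list stood at -0.14, apoptosis at -0.042 and amino acid catabolism at -0.096, without normal diet replicate 3 lipoproteins and lipases stood at 0.063, and without normal diet replicate 2 immediate early genes stood at 0.0094.

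**Figure D5:**
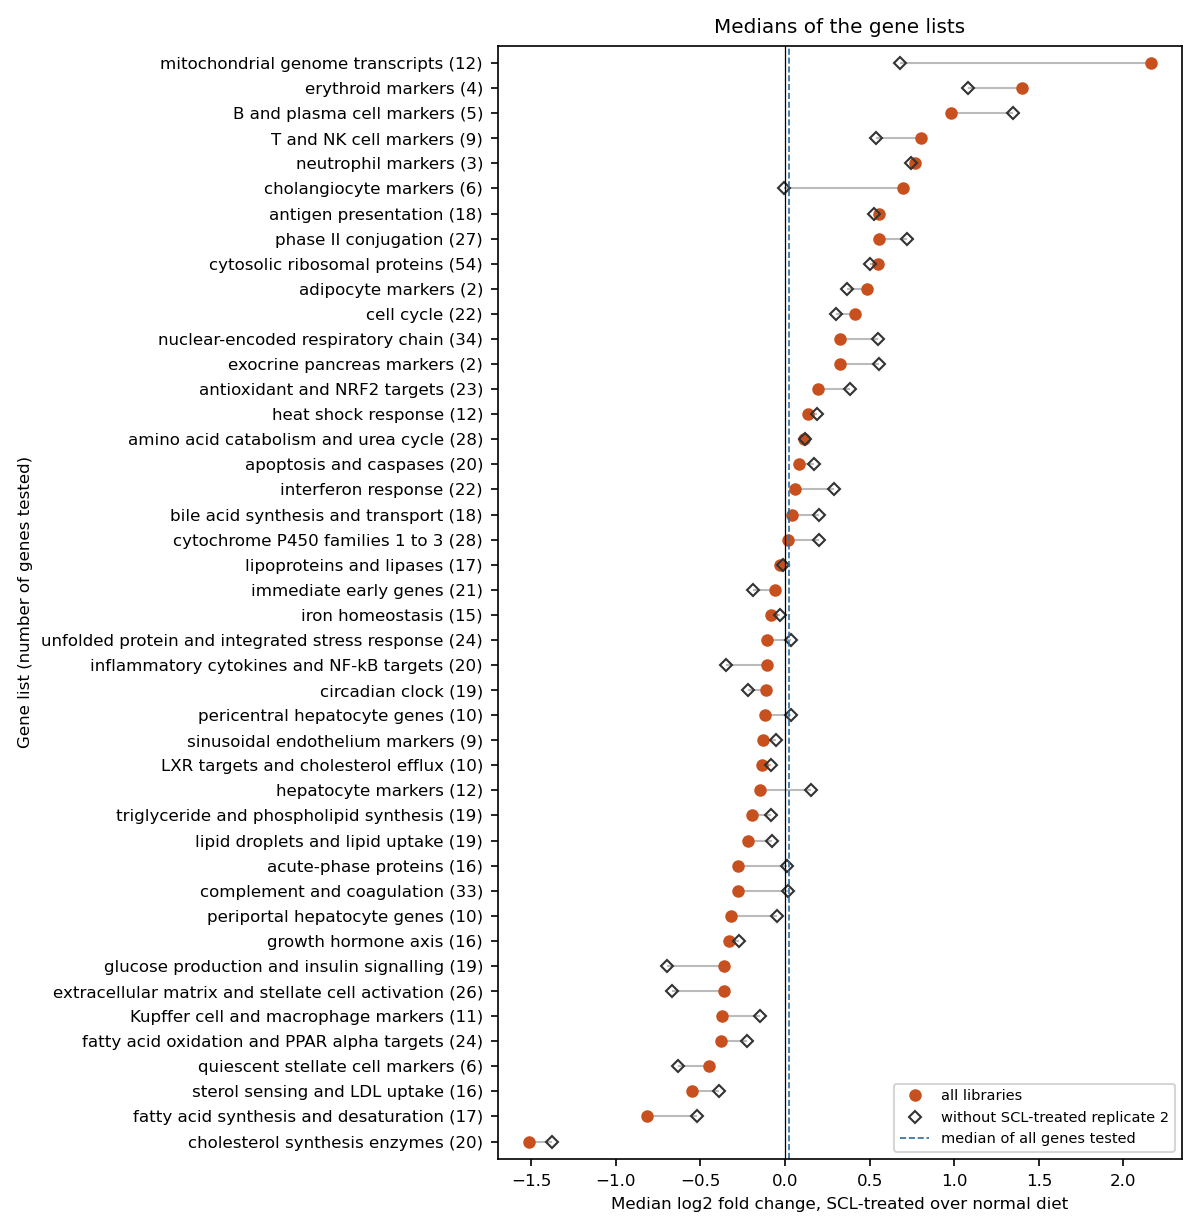
Median log2 fold change of SCL-treated over normal diet livers (x axis) for the 44 gene lists (y axis, with the number of genes tested), with all libraries (filled circles) and without SCL-treated replicate 2 (open diamonds), and a dashed line at the median of all genes tested. Cholesterol synthesis enzymes lie lowest in both, at -1.51 and -1.38, while transcripts of the mitochondrial genome move from 2.16 to 0.68.

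The high-fat diet livers were set beside the SCL-treated livers for the genes that stood out. Both comparisons use the same 3 normal diet libraries, so their values are not independent and are given side by side. Tm7sf2 had 11.03, 7.15 and 5.30 CPM in the high-fat diet replicates, Cyp51 28.2, 25.8 and 15.1 CPM and Sqle 2.56, 2.04 and 3.91 CPM, each below all normal diet libraries. The median of the 20 cholesterol enzymes was -1.51 with SCL and -1.77 on the high-fat diet, and that of SCL-treated over high-fat diet was 0.22. Conjugation genes had medians of 0.55 and 0.23. Several genes higher with SCL also had a higher mean on the high-fat diet than on the normal diet. The examples were chosen after their values were seen. Tex13b had a mean of 22.9 CPM on the high-fat diet (8.94, 14.7 and 45.2 CPM) and 18.2 with SCL. Pyroxd2 had means of 53.1 and 54.8, and Chka 444 (114, 507 and 710 CPM) and 219. Igh-6 stood at 2.80 (SE 0.68) over the normal diet there, with 10.7, 37.0 and 97.7 CPM, the first near the highest normal diet library (10.2 CPM). The mitochondrial share of the high-fat diet replicates also rose in that order, at 4.90%, 18.8% and 44.1%. Whether these values go with that share was not tested. Mme, at a mean of 4.36 CPM, lay between the normal diet and SCL-treated means. Gstt3 had 112, 58.6 and 91.6 CPM on the high-fat diet, all below the SCL-treated libraries, and its SCL-treated over high-fat diet log2 fold change was 1.81 (SE 0.51). Oat had 219, 221 and 161 CPM there, close to the normal diet, with 0.86 (SE 0.26). Neither difference passed edgeR, with an adjusted p of 1.00 for each.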

How the data were processed

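Per the labels' protocols, Trizol was used for liver RNA and a NEBNext Ultra kit for the libraries. Per the file headers, each of the 2 deposited tables has raw counts, a normalized signal (by its values, the count over a size factor), FPKM values and the log2 fold changes and p-values of the authors. Per the submitters' processing notes, DESeq2 (version not named) and the build mm9 were used, but mm9 is a mouse build and was not taken as that of these rat counts. The aligner, counting tool and strand setting were not given in the sources used here, so overlapping genes and close copies are uncertain.

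The 15565 symbols in both tables were joined, leaving out 254 and 364 genes of 1 table only, with 0.0019% or less of the reads of any library. All 9 libraries entered 1 edgeR 4.0.16 quasi-likelihood fit (R 4.3.3) with group as the only term, TMM scaling and filterByExpr at a minimum count of 10. The standard error (SE) is the size of the log2 fold change over the root of F, and the Benjamini-Hochberg adjustment ran over all 12041 genes tested. No pair of libraries within a group was a repeat (lowest chi-square per degree of freedom 38.5). The deposited signal, log2 fold changes and p-values of the authors were not used. The alternatives, DESeq2 1.42.0, limma-voom (limma 3.58.1), other scalings and filters, leaving out libraries, a replicate block and the mitochondrial share as covariate, are in the closing section. The scripts were tested on simulated counts. Promoters were matched by symbol to RefSeq windows, and plots drawn with matplotlib 3.10.9 and pandas 2.3.3 in Python 3.11.15.

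The libraries, the 44 gene lists and the motifs were chosen with earlier results of these data known. Named genes are those past an adjusted p of 0.05, then, to 10 in each direction, those of smallest unadjusted p with a mean of at least 1 log2 CPM, an absolute log2 fold change of at least 1 and groups that do not overlap, leaving out predicted loci. Cholesterol synthesis and sterol sensing genes were also named, apart from those not reported here. Of other lists up to 4 called genes were named, else the 2 most abundant and up to 2 of smallest unadjusted p under 0.05. Others were chosen after their values were seen, among them Ephx1, Gclc, Gclm, Nqo1, Hmox1, Srxn1, Txnrd1 and Ctsw. Some listed genes are not reported here by name, but list counts and medians hold those tested.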

Additional observations from a re-analysis of the deposited data

How the results depend on the processing

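The count of called genes depended on the test and on single libraries. DESeq2 called 40 genes (22 higher, 18 lower) and limma-voom with quality weights 152 (73 higher, 79 lower), with 35 genes called by both, and 7 and 13 of the 20 cholesterol enzymes among their lower calls. EdgeR called 0 genes with library totals, without the 2 libraries over 40% mitochondrial and at an adjusted p under 0.01, and 828, 855 and 828 genes, in that order, had an unadjusted p under 0.05. With 1 library left out it called between 0 and 1 genes. It called 3 without SCL-treated replicate 2 among the 6 libraries compared, an alternative added after seeing the data. With the replicate number as a block it called 1 gene, Tm7sf2 (adjusted p = 0.034). The correlations of same-numbered SCL-treated and normal diet libraries were 0.17, -0.15 and -0.10. Those of differently numbered libraries ran from -0.25 to 0.24. A pairing by number was thus not seen, but so few correlations cannot exclude one. The cholesterol median was -1.13 with the mitochondrial share as covariate and ran from -1.81 to -1.36 with 1 library left out. Tm7sf2, the only gene past the edgeR threshold in the main fit, was lower in each alternative. Some other named genes changed sign without SCL-treated replicate 2, such as Mbtps2, from 0.31 to -0.12, and Clec4f, from -0.27 to 0.12. Depth limits genes of low count most in SCL-treated replicate 2, which held 3.81 M reads outside its 100 most abundant genes, against 7.18 M in normal diet replicate 2.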
